A study of Mus musculus with 9 samples.

Results

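The genes described here are those of the mouse major histocompatibility complex (MHC, called H2 in the mouse) and of the machinery that loads peptides on its products. They were all rows of the raw count table whose symbol starts with H2-, together with B2m, Tap1, Tap2, Tapbp, Psmb8, Psmb9, Psmb10, Nlrc5, Ciita and Cd74, with at least 1 count in any of the 9 libraries. Of 50600 genes in the table, 55 matched these symbols, 16 of them had 0 counts in every library, and the remaining 39 are the members, 29 with an H2- symbol. The 16 at 0 included the class II genes H2-Ob, H2-Eb2, H2-Pa, H2-Pb and H2-Ea-ps, and 11 genes of the distal M region such as H2-M5, H2-M9 and the H2-M10 family. Because the members were found by symbol, 7 annotated pseudogenes and 1 gene of another kind, H2-Ke6, which encodes a steroid dehydrogenase, are among them.

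RNA was sequenced from wildtype (WT) organoids of the small intestine, labelled as strain C57BL/6, and from untreated tumoroids grown from intestinal tumours of Apc1638N/+ mice, labelled as strain MIX. Organoids are stroma-free epithelial cultures in Matrigel, and tumoroids are their counterparts from tumours. The 6 organoid libraries were made after 24 hr in medium conditioned by tumoroids (T-cM) or by normal organoids (WT-cM), mixed with an equal volume of fresh concentrated medium, with 3 libraries per medium, and 3 libraries were made from tumoroids. The title and the treatment field of each of these 6 libraries disagree on which medium was used. The groups of 3 are the same by either label and are named here by title, as T-cM-titled organoids and WT-cM-titled organoids, and every sign between them is inverted if the treatment field is correct. Normal organoids were grown with EGF, Noggin and R-spondin1, whereas the study describes a medium without R-spondin1 for tumoroids (the labels give 1 medium for all), which were derived from older mice than the organoids. The comparison of tumoroids with organoids therefore joins genotype, tissue, animal, strain label and medium, which cannot be told apart. The study's methods give a mixed genetic background for all mice, which differs from the strain label of the organoids. The labels do not say that the numbered replicates were separate animals, although the study's methods describe its experiments in general as done with organoid lines of different mice, and the p-values measure the spread between these libraries.

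MHC class I molecules display peptides from the cell's own proteins to CD8 T cells and natural killer cells. A class I molecule has a heavy chain, beta-2 microglobulin as light chain, and a peptide cut by the proteasome, moved into the endoplasmic reticulum by the Tap1-Tap2 transporter and loaded with the help of tapasin (Tapbp). Class Ia heavy chains (H2-K1, H2-D1) are polymorphic and expressed in nearly all nucleated cells, while class Ib chains of the Q, T and M regions are more restricted, and the intestinal epithelium is a known site of several of them. Class II molecules present peptides from endocytosed proteins to CD4 T cells. They are typical of professional antigen-presenting cells, but small intestinal epithelium, its crypts included, expresses them too, under the transactivator Ciita and, in large part, interferon gamma.

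The H2 region is the most polymorphic part of the mouse genome, the number of Q and T genes differs between haplotypes, and reads from an allele that differs from the C57BL/6 reference can align less well. A lower count in tumoroids, which carry another strain label, can thus not be told apart from an allele that matches the reference less well or from a haplotype that lacks the gene. The heavy chain genes also share sequence. Of all 100-base windows in the annotated transcripts of each member, the share found in another gene was at most 14% for the Q genes, with H2-Q5 highest, 0.957% for H2-K1, 3.59% for H2-D1 and 0 for H2-T3. It was 11.3% for H2-DMb1 and 10.3% for H2-DMb2, all of it between this pair, and 61.6% for H2-Ke6, all with the overlapping gene Gm20427. H2-T10 lies within, and H2-T-ps overlaps by 1940 bases, the annotated gene Gm7030 on the same strand, so that their counts are uncertain. Tapbp overlaps Zbtb22 on the same strand, and B2m, Ciita and H2-DMa overlap Patl2, Dexi and Brd2 on the opposite strand. The library kit keeps strand, but the setting used in counting is not given in the sources used here.

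The libraries held 16541635 to 25170966 counted reads. Levels are given as CPM (counts scaled to the library's counted reads) after TMM scaling of library sizes, with values in the order of replicates 1, 2 and 3, and 3 counts equal 0.103 to 0.204 CPM. Epithelial markers (8 genes, Epcam and Cdh1 among them) summed to 9985 to 10880 CPM in WT-cM-titled organoids, 9897 to 12190 CPM in T-cM-titled organoids and 7078 to 7919 CPM in tumoroids. In tumoroids Vil1 (-2.15) and Krt19 (-1.11) of that list were called lower, Krt8 (-0.75) passed as lower and Krt18 (1.38) was called higher, on the log2 scale. A list of 16 immune cell markers, with Cd3e, Tyrobp, Flt3 and Xcr1 among those at 0 counts in every library, summed to 1.70 to 5.40, 2.43 to 5.86 and 9.56 to 29.9 CPM, and Cd68, Csf1r and Laptm5 of that list passed the test in tumoroids, all higher. Itgam of the same list, not tested, measured 0.227, 0.409 and 0.309 CPM in the tumoroids, below the organoid range of 0.66 to 1.46 CPM. Lyz2, at a log2 fold change of -2.22 (adjusted p = 0.115), did not pass the test. The defining leukocyte gene Ptprc stayed between 0 and 0.902 CPM. Fibroblast (7 genes) and endothelial (4 genes) markers summed to at most 2.47 and 3.85 CPM. The endothelial gene Cdh5 was called higher in tumoroids (adjusted p = 0.0358), with 0.0453, 0.0372 and 1.86 CPM in the tumoroids and 0 counts in every organoid library. Pecam1, also endothelial and not tested, measured 0.227, 0.186 and 0.172 CPM in the tumoroids, below the organoid range of 0.407 to 1.06 CPM. The part of such cells in the results was not tested. In RNA of whole cultures, fewer cells of a type and less RNA per cell cannot be told apart.

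Of the 39 members, 35 had a TPM (a level per gene length that has an equal sum in every library) of at least 1 in at least 1 library and were tested within edgeR's quasi-likelihood fit of all 16208 genes that met this filter. Ciita, H2-Oa, H2-Ke6 and H2-M6-ps did not meet it, and the last 3 had at most 3 counts in any library. H2-Aa met it through WT-cM-titled organoids alone, H2-Q3 through organoids alone, and H2-DMb2, H2-M2 and Nlrc5 through tumoroids alone, so that a call of such a gene, higher where it met the filter, is no support for a count of calls. A member that passed the test had an adjusted p (Benjamini-Hochberg over all tested genes) under 0.05, and a called member also had an absolute log2 fold change above 1. Most members, 34 of 39, lie on chromosome 17.

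**Figure D1:**
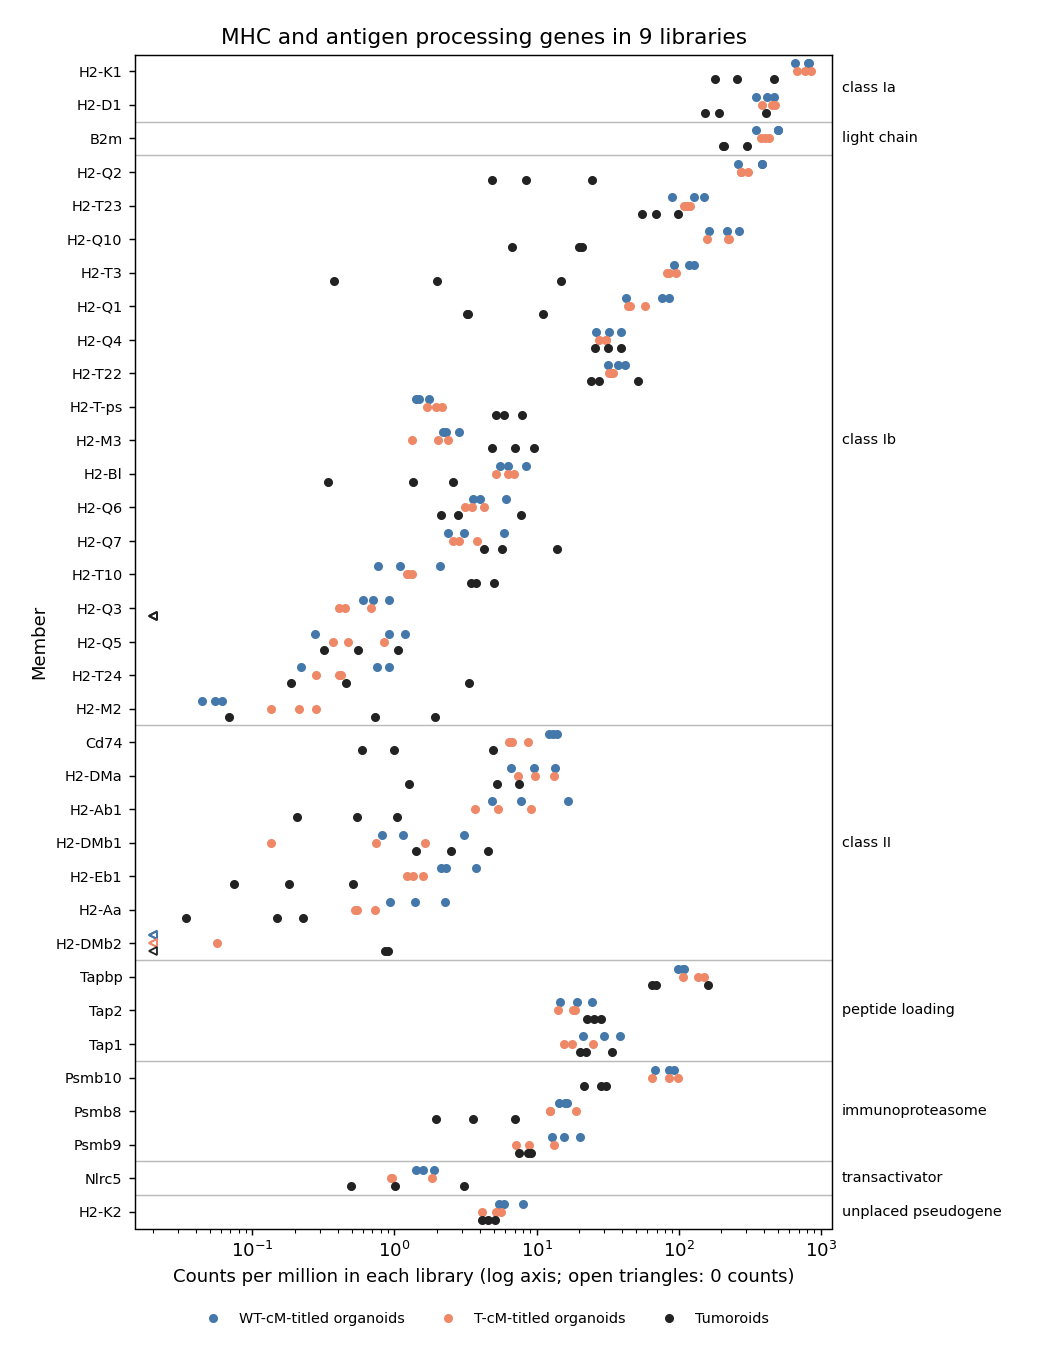
TMM-normalised CPM (log axis) of the 35 tested members in each of the 9 libraries, by class and, within a class, by mean TPM. Each point is 1 library and open triangles mark 0 counts. H2-K1 and H2-D1 stand highest, and H2-Q2, H2-Q10, H2-T3 and H2-Q1 show tumoroids (black) far below both organoid groups.

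Class Ia heavy chains and their light chain were the most abundant members. H2-K1 (chr17:33996017-34000347, GRCm38) measured 659, 831 and 813 CPM in the WT-cM-titled and 679, 860.3 and 781 CPM in the T-cM-titled organoids, and 257, 182 and 467 CPM in the tumoroids. All 3 tumoroids lay below all 6 organoid libraries, and the log2 fold change of tumoroids over organoids was -1.35 ± 0.28 (SE, adjusted p = 0.00304). H2-D1 (chr17:35262730-35267499) measured 349.5, 421 and 467 CPM in the WT-cM-titled and 387, 456 and 478 CPM in the T-cM-titled organoids. Its tumoroid values were 192, 153 and 409 CPM, with the third inside the organoid range. The log2 fold change of -0.76 ± 0.29 (SE, adjusted p = 0.0518) did not pass the test. Without tumoroid replicate 3 it was -1.33 with an adjusted p of 0.000368, and its adjusted p fell under 0.05 in 8 of 19 alternative settings. B2m (chr2:122147686-122153083), the light chain that every class I heavy chain needs at the surface, measured 348, 503 and 501 CPM in the WT-cM-titled and 378, 408 and 432 CPM in the T-cM-titled organoids, and 205, 209 and 304 CPM in the tumoroids. The groups did not overlap in CPM, and its log2 fold change was -0.84 ± 0.19 (SE, adjusted p = 0.00449). On TPM tumoroid replicate 3, at 1266 TPM, lay inside the organoid range of 1064 to 1402 TPM, and limma's fit on log2(TPM + 1) gave -0.33 (adjusted p = 0.13).

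Between the organoid groups these 3 genes were close. H2-K1 differed by a log2 fold change of 0.02 ± 0.07 (SE, adjusted p = 0.91), H2-D1 by 0.11 ± 0.07 (SE, adjusted p = 0.405) and B2m by -0.12 ± 0.08 (SE, adjusted p = 0.411). None of the 3 passed the test.

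Class Ib was the class with most members, 18 of 39, of which 17 were tested. On the scale of TPM, which allows genes to be compared, H2-K1, H2-D1, H2-Q2, H2-T23 and H2-Q10 were the 5 highest H2- genes over the 9 libraries. H2-Q2 averaged 382 TPM in WT-cM-titled and 323 TPM in T-cM-titled organoids, close to H2-D1 at 387 and 421 TPM, whereas in tumoroids H2-Q2 averaged 20.7 TPM and H2-D1 344 TPM. In the tumoroid comparison 7 class Ib genes (41.2%) passed the test as lower, against 20.8% of all genes, 5 (29.4%) passed as higher, against 29.6%, and 5 did not pass.

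Of the class Ib genes that fell, H2-Q2, H2-Q10, H2-T3 and H2-Q1 had organoid levels far above those of H2-Q3 and H2-Bl, the others called lower. H2-Q2 (chr17:35342242-35346762) measured 261, 387 and 387 CPM in the WT-cM-titled and 273, 308 and 274 CPM in the T-cM-titled organoids, and 4.89, 8.44 and 24.5 CPM in the tumoroids. Every tumoroid lay below every organoid library by over an order of magnitude, and the log2 fold change was -4.63 ± 0.52 (SE, adjusted p = 7.33e-05). H2-Q10 (chr17:35470089-35474563), whose product is a secreted class Ib molecule, measured 164, 219 and 266 CPM in the WT-cM-titled and 158, 225 and 223 CPM in the T-cM-titled organoids. In tumoroids it measured 20, 6.73 and 21.1 CPM, which gave -3.71 ± 0.39 (SE, adjusted p = 5.27e-05). H2-T3 (chr17:36185572-36190287), the thymus leukaemia antigen, a ligand of CD8 alpha homodimers known from intestinal epithelium, measured 92.9, 129 and 118 CPM in the WT-cM-titled and 83.1, 95.1 and 84.9 CPM in the T-cM-titled organoids. The tumoroids measured 1.99, 14.8 and 0.378 CPM, a wide relative spread among the 3, and the log2 fold change was -4.12 ± 0.89 (SE, adjusted p = 0.00364). H2-Q1 (chr17:35320405-35325099) measured 42.5, 85.6 and 76 CPM in the WT-cM-titled and 44, 57.9 and 45.4 CPM in the T-cM-titled organoids, and 3.31, 11.2 and 3.26 CPM in the tumoroids, with a log2 fold change of -3.29 ± 0.47 (SE, adjusted p = 0.000305). The direction and the call of H2-Q1, H2-Q2 and H2-Q10 held in all 19 alternative settings, and those of H2-T3 in 18, DESeq2 giving it no adjusted p. Leaving out tumoroid replicate 2 moved H2-T3 to -6.46 and H2-Q1 to -4.15, and leaving out replicate 3 moved H2-Q2 to -5.56. Tumoroid replicate 2 was highest of the 3 for H2-Q1 and H2-T3 but lowest for H2-Q10, so the order of the tumoroids differed between these neighbours.

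The same 4 genes carried most class Ib transcripts in organoids. H2-Q1, H2-Q2, H2-Q10 and H2-T3 together made up 77.6 ± 1.39% (SD, n = 3) of the summed class Ib TPM in WT-cM-titled organoids, 75.8 ± 1.34% in T-cM-titled organoids and 17.1 ± 4.98% in tumoroids. The summed TPM of class Ia was 1101 ± 71.5, 1153 ± 95 and 752 ± 398 in the 3 groups, and that of class Ib, pseudogenes included, was 849 ± 128, 738 ± 44.4 and 284 ± 75.9. The class Ib share of all class I heavy chain TPM was 43.4 ± 2.31%, 39.0 ± 1.03% and 28.9 ± 5.26%. These sums are given without a test. Tumoroid replicate 3 had a class Ia sum of 1209 TPM, within the organoid values of 1020 to 1247 TPM, against 566 and 481 TPM in the other two.

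**Figure D2:**
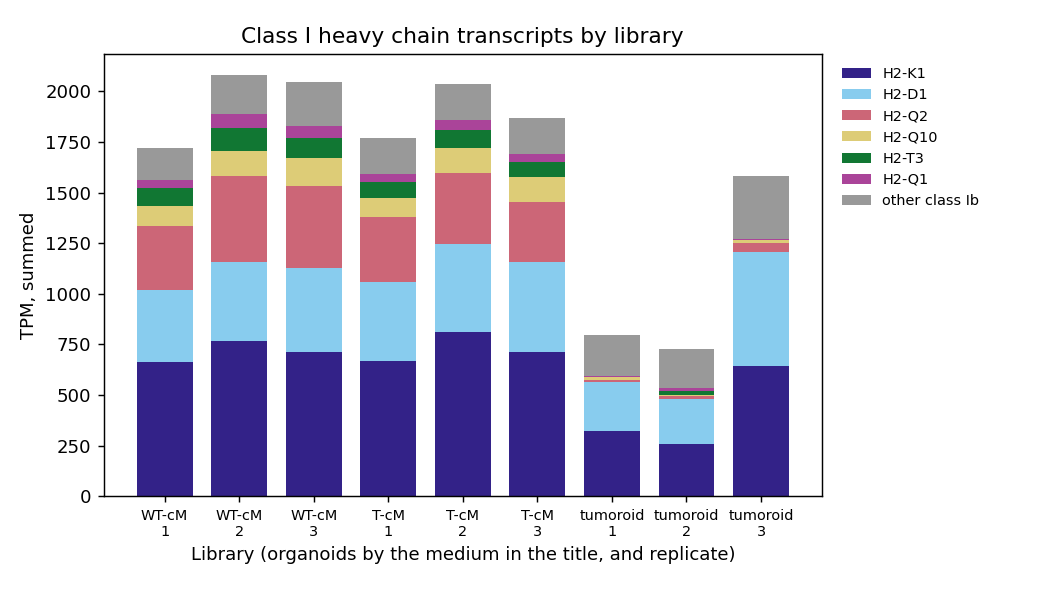
Summed TPM of class I heavy chain genes in each library, stacked by gene, with the 14 remaining class Ib genes in grey. H2-Q2, H2-Q10, H2-T3 and H2-Q1 fill a broad band in all 6 organoid libraries and a thin one in the 3 tumoroids, while the sum of H2-K1 and H2-D1 in tumoroid replicate 3 is within the organoid values.

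The 250 bases before RefSeq's start of 5 class I genes are shown because promoters of this family are known for elements of the kinds searched here. H2-Q2, H2-Q10 and H2-T3 differ from H2-K1 in the exact letters searched. The RefSeq start lies inside the Gencode gene for H2-Q2 and H2-T3, so that 65 and 136 bases of their windows are within the gene positions given above. The sequences are RefSeq's for GRCm38.p6 (C57BL/6), 5′ to 3′ on the strand of the gene, and say nothing of the alleles in the tumoroids. Searched on both strands were GGGGATTCC (NF-kB), TTCNNTTTC (core of the interferon-stimulated response element), TTCNNNGAA (gamma-activated site), TGACG (X2 box) and ATTGG (NF-Y, Y box), and capitals mark the matches. Only exact matches were marked, so near forms of these letters are missed. The stretch agtttcacttct, a near form of the interferon-stimulated core, stands unmarked in H2-K1, H2-Q7 and H2-Q10, and agtttcactttt in H2-T3. H2-Q10 held none of them, and its capitals mark the 9 bases that follow the same flank as the NF-kB letters of H2-K1, from which they differ by the substitutions G2A and T6C, counted from 1 at the 5′ end of the 9 letters with the base of H2-K1 first. H2-K1 is at chr17:34000348-34000597, minus strand, H2-Q7 at chr17:35438905-35439154, plus strand, H2-Q2 at chr17:35342057-35342306, plus strand, H2-Q10 at chr17:35469839-35470088, plus strand and H2-T3 at chr17:36190152-36190401, minus strand.
H2-K1: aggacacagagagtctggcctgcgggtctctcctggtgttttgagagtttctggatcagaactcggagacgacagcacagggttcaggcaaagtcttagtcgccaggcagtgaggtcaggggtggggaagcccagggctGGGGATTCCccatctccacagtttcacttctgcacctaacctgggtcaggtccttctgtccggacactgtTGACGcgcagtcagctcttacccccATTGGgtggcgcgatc
H2-Q7: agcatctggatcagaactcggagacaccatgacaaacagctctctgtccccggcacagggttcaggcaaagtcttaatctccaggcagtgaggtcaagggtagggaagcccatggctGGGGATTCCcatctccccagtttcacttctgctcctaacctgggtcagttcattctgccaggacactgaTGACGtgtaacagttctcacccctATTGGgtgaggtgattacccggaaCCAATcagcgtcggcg
H2-Q2: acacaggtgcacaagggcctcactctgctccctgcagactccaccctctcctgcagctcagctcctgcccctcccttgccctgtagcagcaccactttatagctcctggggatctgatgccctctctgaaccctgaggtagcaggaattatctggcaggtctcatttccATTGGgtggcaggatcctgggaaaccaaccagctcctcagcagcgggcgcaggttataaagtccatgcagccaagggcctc
H2-Q10: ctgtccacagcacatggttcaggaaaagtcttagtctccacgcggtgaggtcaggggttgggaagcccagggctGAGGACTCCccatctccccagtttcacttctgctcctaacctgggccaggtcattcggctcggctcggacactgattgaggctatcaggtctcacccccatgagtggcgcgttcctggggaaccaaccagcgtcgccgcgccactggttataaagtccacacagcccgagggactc
H2-T3: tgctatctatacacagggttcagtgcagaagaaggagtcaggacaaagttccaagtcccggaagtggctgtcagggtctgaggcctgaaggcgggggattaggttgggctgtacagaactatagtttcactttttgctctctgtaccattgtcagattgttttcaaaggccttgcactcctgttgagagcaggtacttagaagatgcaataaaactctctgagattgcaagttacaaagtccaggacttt

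Promoters were found for 24 of the 35 tested members. The NF-kB letters were in 4 of these 24 (16.7%), which were H2-K1, H2-D1, H2-Q6 and H2-Q7, against 0.213% of all 32851 promoters. ATTGG was in 19 of 24 (79.2%) against 33.8%, and TGACG in 11 of 24 (45.8%) against 17.8%. The core of the interferon-stimulated response element was in 3 (12.5%, B2m, H2-T22 and H2-T23) against 7.13%, and the gamma-activated site in 3 (12.5%, H2-M3, H2-DMb2 and Psmb8) against 7.02%. H2-Q2 held ATTGG and no other of these letters, and H2-Q10 and H2-T3 held none. Of the class Ib genes that rose in tumoroids, H2-Q7, H2-M3 and H2-M2 each held ATTGG and TGACG, while H2-T-ps held ATTGG alone. No promoter was found for H2-T10, which also rose, or for H2-Q1, H2-Q3 and H2-Bl, which were called lower. Only exact letters were counted, so a window without them can hold a near form of the element. These letters are descriptions of the reference window and no evidence of binding.

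The remaining class Ib genes fell into smaller groups. H2-Bl, a T region gene annotated as a polymorphic pseudogene, ranged from 5.18 to 8.41 CPM in the organoids and 0.344 to 2.57 CPM in the tumoroids, without overlap. Its log2 fold change was -2.17 ± 0.53 (SE, adjusted p = 0.00696), or -2.95 without tumoroid replicate 2. H2-Q3, an annotated pseudogene, measured 0.605, 0.912 and 0.708 CPM in the WT-cM-titled and 0.688, 0.407 and 0.451 CPM in the T-cM-titled organoids and had 0 counts in all 3 tumoroids. Against a floor of 3 counts per tumoroid library (mean 0.117 CPM) it was at least 5.37-fold lower in tumoroids. H2-T23 (chr17:36029773-36032855), which encodes Qa-1, the molecule that shows class I leader peptides to the CD94-NKG2A receptor of natural killer cells, measured 89.4, 129 and 150.4 CPM in the WT-cM-titled and 109.7, 114 and 120.3 CPM in the T-cM-titled organoids. Its tumoroid values of 68.8, 54.9 and 99.3 CPM overlapped the organoids through replicate 3. The log2 fold change of -0.68 ± 0.21 (SE, adjusted p = 0.0248) passed the test below the fold threshold, and 11 of 19 alternative settings kept it past the test.

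Among class Ib genes 5 rose in tumoroids, all from low levels. H2-M3 (chr17:37270220-37274484), which presents N-formylated peptides of bacteria and mitochondria, measured 2.31, 2.19 and 2.83 CPM in the WT-cM-titled and 1.32, 2.04 and 2.37 CPM in the T-cM-titled organoids. In tumoroids it measured 7.02, 4.87 and 9.62 CPM, every library above all 6 organoid libraries, with a log2 fold change of 1.73 ± 0.29 (SE, adjusted p = 0.000834). H2-T10, a relative of the gamma-delta T cell ligand H2-T22, is annotated as a polymorphic pseudogene. It measured 0.769, 1.09 and 2.08 CPM in the WT-cM-titled and 1.32, 1.22 and 1.24 CPM in the T-cM-titled organoids, and 3.44, 5.02 and 3.74 CPM in tumoroids, which gave 1.65 ± 0.34 (SE, adjusted p = 0.00265). The pseudogene H2-T-ps, which overlaps the same gene Gm7030, ranged from 1.42 to 2.17 CPM in the organoids and 5.17 to 7.87 CPM in the tumoroids, with a log2 fold change of 1.86 ± 0.24 (SE, adjusted p = 0.000189). H2-M3, H2-T10 and H2-T-ps stayed called in all 19 alternative settings. H2-Q7, which encodes Qa-2, measured 3.08, 2.37 and 5.89 CPM in the WT-cM-titled and 2.59, 2.85 and 3.83 CPM in the T-cM-titled organoids. Its tumoroid values were 5.75, 4.28 and 14 CPM, and the log2 fold change of 1.23 ± 0.41 (SE, adjusted p = 0.0322) dropped to 0.53 with an adjusted p of 0.262 without tumoroid replicate 3. H2-M2 had 1 count in each WT-cM-titled library, 2 to 5 counts in the T-cM-titled ones and 16, 52 and 2 counts in the tumoroids, with a log2 fold change of 3.02 ± 0.81 (SE, adjusted p = 0.0115). Leaving out any organoid replicate or tumoroid replicate 2 took H2-M2 out of the called genes, with adjusted p between 0.0508 and 0.108. Its log2 fold change was 1.77 without tumoroid replicate 2 and 2.96 to 3.09 without an organoid replicate. The fit counts same-numbered organoid libraries as separate, and with these summed by number H2-Q7, H2-M2 and H2-T23 did not pass the test (adjusted p = 0.111, 0.0719 and 0.0561). H2-Q4, H2-Q5, H2-Q6, H2-T22 and H2-T24 did not pass the test, with log2 fold changes from -0.04 to 1.46.

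The genes of the class II chains fell in tumoroids. H2-Ab1 (chr17:34257689-34269419), the beta chain of the I-A molecule, measured 4.84, 7.72 and 16.5 CPM in the WT-cM-titled and 5.34, 3.66 and 9.07 CPM in the T-cM-titled organoids. The tumoroids measured 0.544, 1.04 and 0.206 CPM, all below the lowest organoid, and the log2 fold change was -3.67 ± 0.64 (SE, adjusted p = 0.00105). H2-Aa (chr17:34282744-34287823), the alpha chain of I-A, measured 0.934, 1.4 and 2.26 CPM in the WT-cM-titled and 0.529, 0.543 and 0.733 CPM in the T-cM-titled organoids, and 0.227, 0.149 and 0.0343 CPM in tumoroids, with -2.80 ± 0.61 (SE, adjusted p = 0.00374). H2-Eb1 (chr17:34305867-34316674), the beta chain of I-E, measured 2.14, 2.31 and 3.76 CPM in the WT-cM-titled and 1.59, 1.22 and 1.35 CPM in the T-cM-titled organoids, and 0.181, 0.0744 and 0.515 CPM in tumoroids, with -2.88 ± 0.58 (SE, adjusted p = 0.00241). The alpha chain of I-E is a pseudogene in C57BL/6, and H2-Ea-ps was at 0 counts in all 9 libraries, tumoroids of strain MIX included. The tumoroid values of H2-Aa and H2-Eb1 rested on 1 to 5 and 2 to 15 counts per library. H2-Ab1 stood at -4.39 without tumoroid replicate 2 and H2-Eb1 at -3.92 without replicate 3.

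Cd74, the invariant chain that guards the class II groove until peptide loading, measured 14, 12.2 and 13.1 CPM in the WT-cM-titled and 8.72, 6.38 and 6.76 CPM in the T-cM-titled organoids. In tumoroids it measured 0.997, 0.595 and 4.91 CPM, below all organoids, with a log2 fold change of -2.16 ± 0.59 (SE, adjusted p = 0.0129) that was -3.64 without tumoroid replicate 3. All 4 of these class II members passed the test in all 19 alternative settings. Ciita, their transactivator, did not meet the TPM filter and was not tested. It measured 1.43, 1.7 and 2.17 CPM in the WT-cM-titled and 1.0, 0.814 and 1.35 CPM in the T-cM-titled organoids, and 0.498, 0.149 and 0.378 CPM in tumoroids, and every tumoroid lay below every organoid library.

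The genes of the H2-DM molecule, which exchanges peptides on class II, gave values in both directions. H2-DMa (chr17:34119541-34139101), its alpha chain, measured 6.65, 9.61 and 13.4 CPM in the WT-cM-titled and 7.35, 9.77 and 13.2 CPM in the T-cM-titled organoids, and 5.26, 7.51 and 1.27 CPM in tumoroids. The log2 fold change of -1.10 ± 0.49 (SE, adjusted p = 0.0906) did not pass the test, but it passed with limma voom (-1.44, adjusted p = 0.043), with DESeq2 (-1.16, adjusted p = 0.0379) and without tumoroid replicate 2 (-1.65, adjusted p = 0.0323). H2-DMb1, one of its beta chains, measured 0.824, 1.16 and 3.1 CPM in the WT-cM-titled and 0.74, 0.136 and 1.64 CPM in the T-cM-titled organoids, and 2.49, 1.41 and 4.57 CPM in tumoroids, and its change of 1.23 ± 0.65 (SE, adjusted p = 0.143) did not pass either, although it did in limma's fit on log2(TPM + 1) (1.38, adjusted p = 0.0203), with the replicate block (1.33, adjusted p = 0.0216) and without organoid replicate 3 (2.08, adjusted p = 0.035). H2-DMb2, the other beta chain, had 43 counts over the tumoroids, none of them in replicate 3, and 1 count over the 6 organoid libraries. The ratio of its summed CPM was 59.9, with an exact 95% interval of 10.2 to 2419 that covers counting error only. It was called with an adjusted p of 0.0148, and the call was lost without organoid replicate 2 or 3 (adjusted p = 0.055 and 0.0568), with limma voom (adjusted p = 0.104) and when only T-cM-titled organoids were the reference (adjusted p = 0.0672). Tumoroid replicate 3, the library without H2-DMb2, was the highest of the 3 for H2-DMb1, and the pair shares transcript sequence as given above. H2-Oa, an inhibitor subunit of this exchange, had a single count, in tumoroid replicate 1.

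The immunoproteasome subunits replace the constitutive catalytic subunits when cells meet interferon gamma, and the pairs are Psmb8 with Psmb5, Psmb9 with Psmb6 and Psmb10 with Psmb7. Psmb10 (chr8:105935735-105938444) measured 93.3, 85.3 and 68.6 CPM in the WT-cM-titled and 99.5, 84.9 and 65.3 CPM in the T-cM-titled organoids, and 30.9, 21.6 and 28.3 CPM in tumoroids. No tumoroid reached the organoid range, and the log2 fold change was -1.62 ± 0.19 (SE, adjusted p = 9.01e-05). Psmb8 (chr17:34197721-34201454) measured 16.5, 16 and 14.3 CPM in the WT-cM-titled and 19, 12.4 and 12.5 CPM in the T-cM-titled organoids, and 3.58, 1.97 and 7.04 CPM in tumoroids, again without overlap, with -1.84 ± 0.38 (SE, adjusted p = 0.00267). Without tumoroid replicate 3 Psmb8 was at -2.46. Psmb9 (chr17:34181987-34187764) measured 12.8, 15.5 and 20.1 CPM in the WT-cM-titled and 13.3, 7.19 and 8.9 CPM in the T-cM-titled organoids, and 8.7, 7.58 and 9.1 CPM in tumoroids, where the values overlapped those of T-cM-titled organoids. Its change of -0.57 ± 0.24 (SE, adjusted p = 0.0725) did not pass the test, but it passed with DESeq2 (-0.63, adjusted p = 0.0256), against WT-cM-titled organoids alone (-0.93, adjusted p = 0.0209) and with same-numbered organoid libraries summed (-0.67, adjusted p = 0.048).

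On the TPM scale the 3 pairs stood at very different ratios. Psmb10 had 107 ± 3.07% (SD, n = 3) of the TPM of Psmb7 in WT-cM-titled organoids, 103 ± 12.0% in T-cM-titled organoids and 48.4 ± 3.55% in tumoroids. Psmb8 had 7.46 ± 0.588%, 6.55 ± 1.53% and 2.34 ± 1.59% of Psmb5. Psmb9 had 4.04 ± 1.07%, 2.5 ± 0.701% and 3.22 ± 0.414% of Psmb6. Psmb10 was thus expressed at the level of its constitutive partner in normal organoids, and the other two pairs were dominated by the constitutive subunit in every library. In TMM-scaled counts Psmb6 and Psmb7 passed as lower in tumoroids below the fold threshold, whereas their mean TPM was 269, 265 and 254 for Psmb6 and 111, 117 and 114 for Psmb7 in the 3 groups.

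Tap1, Tap2 and Tapbp, which move and load peptides, were not called in tumoroids. Tap1 (chr17:34187553-34197225) measured 21.4, 29.9 and 38.8 CPM in the WT-cM-titled and 25, 15.6 and 17.8 CPM in the T-cM-titled organoids, and 22.3, 20.1 and 33.8 CPM in tumoroids, with a log2 fold change of 0.07 ± 0.25 (SE, adjusted p = 0.833). Tap2 (chr17:34203527-34216321) measured 14.7, 19.3 and 24.7 CPM in the WT-cM-titled and 14.2, 18.1 and 18.7 CPM in the T-cM-titled organoids. Its tumoroid values were 22.5, 25.5 and 28.6 CPM, with a change of 0.49 ± 0.19 (SE, adjusted p = 0.0552) that passed the test in 7 of 19 alternative settings. Tapbp (chr17:33915899-33929292) measured 99.8, 109 and 107 CPM in the WT-cM-titled and 108, 151 and 137 CPM in the T-cM-titled organoids, and 65.2, 69.3 and 161 CPM in tumoroids, a span that covers the whole organoid range, with a change of -0.26 ± 0.28 (SE, adjusted p = 0.463). Without tumoroid replicate 3 the change of Tapbp was -0.83 with an adjusted p of 0.00203. Nlrc5, the class I transactivator, measured 1.59, 1.89 and 1.42 CPM in the WT-cM-titled and 1.85, 0.95 and 0.958 CPM in the T-cM-titled organoids, and 0.498, 1.0 and 3.09 CPM in tumoroids. Its 3 tumoroids spread widely around the organoid values, and the log2 fold change of 0.11 ± 0.54 (SE, adjusted p = 0.893) had either sign among the alternatives.

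In all, 15 of 35 tested members (42.9%) passed the test as lower in tumoroids, against 20.8% of all 16208 genes, and 6 (17.1%) passed as higher, against 29.6%. Of these, 13 (37.1%) were called lower against a background of 12.1%, and 6 (17.1%) called higher against 21%. The 13 were H2-K1, Psmb8, Psmb10, H2-Ab1, H2-Aa, H2-Eb1, Cd74, H2-Q1, H2-Q2, H2-Q3, H2-Q10, H2-Bl and H2-T3, and the 6 were H2-M2, H2-M3, H2-Q7, H2-T10, H2-T-ps and H2-DMb2. Of these, H2-Aa, H2-Q3, H2-M2 and H2-DMb2 met the TPM filter only through the side where they are high. The median log2 fold change of the members was -0.57 and that of all genes 0.16. Scaling by library size alone put the median of all genes at 0.56, and the changes are to be read relative to such a shift. Every tumoroid lay below every organoid library for 14 of 35 members, against 20.2% of all genes, and above for 3 of 35, against 25.6%. The members lie mostly in 1 chromosomal region and share strain, so they are not independent of each other.

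**Figure D3:**
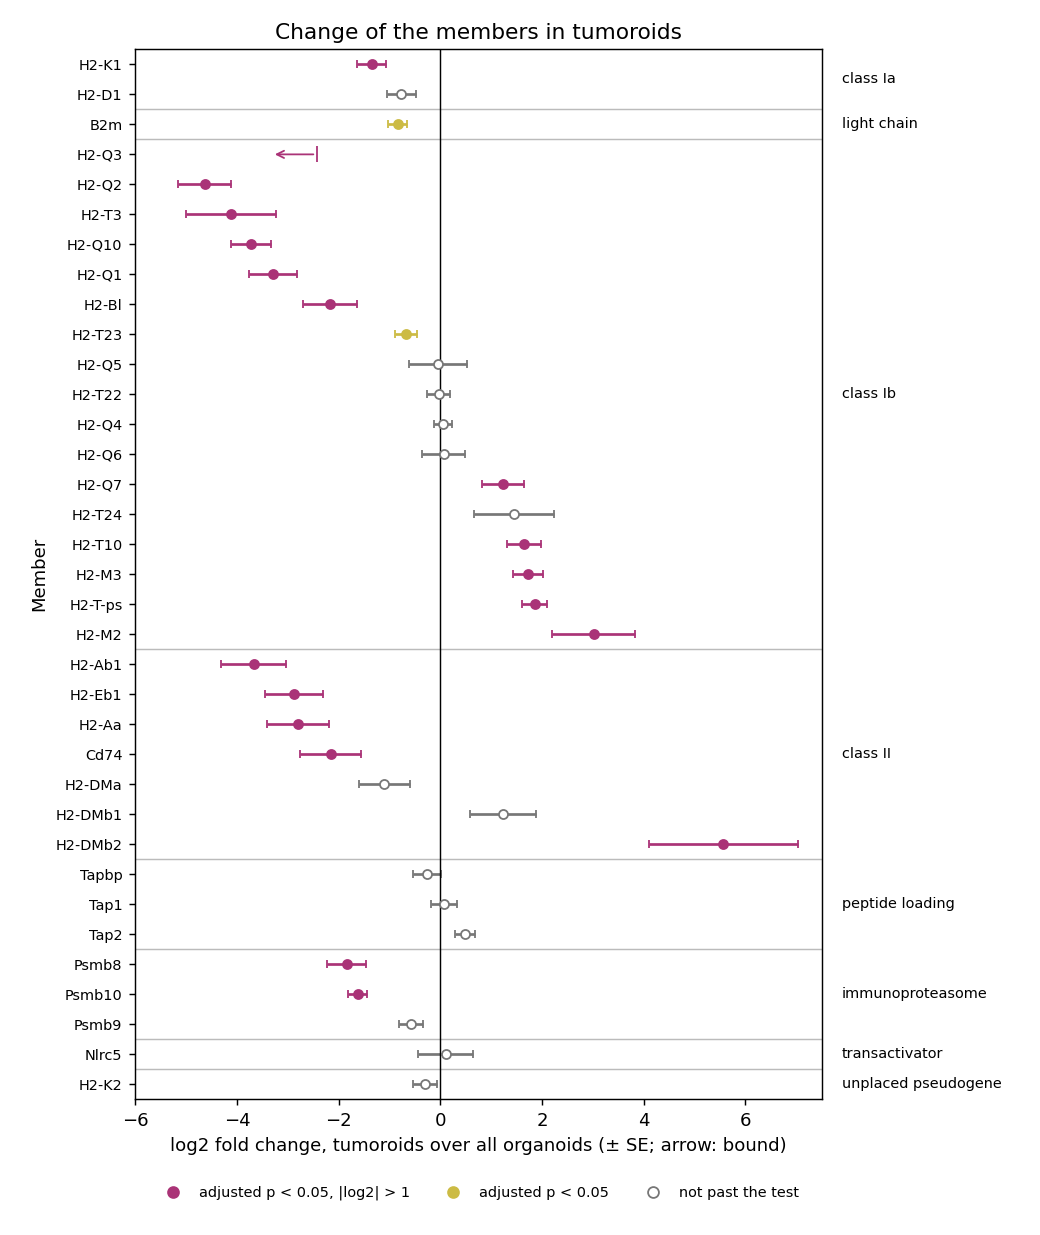
Log2 fold change of tumoroids (n = 3) over the mean of both organoid groups (n = 6 libraries) for the 35 tested members by class, with bars of 1 SE. Filled purple points were called, filled yellow points passed the test below the fold threshold, open points did not pass, and the arrow for H2-Q3 starts at its bound. H2-Aa, H2-Ab1, H2-Eb1, Cd74, H2-Q2, H2-T3, H2-Q10 and H2-Q1 lie far to the left, the H2-DM genes on both sides, and the peptide loading genes around 0.

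The libraries of one group did not stand alike. Among tumoroids, replicate 3 was the highest of the 3 for 22 of the 34 members that had a highest library, against 36.8% of all genes, and among the organoids, averaged by replicate number, replicate 3 was the highest for 23 of 35, against 35.4%. H2-K1, H2-D1, H2-Q2, B2m, Psmb8, Tapbp and Cd74 were among the 22, and H2-T3, H2-Bl, H2-DMa, H2-DMb2, H2-Aa, H2-Ab1 and H2-M2 were among those lowest in tumoroid replicate 3. Immune markers Cd68 and Laptm5 were also highest in tumoroid replicate 3, at 20.5 and 4.16 CPM, while Csf1r was highest in replicate 2, at 20.4 CPM. Cdh5, Tek and the fibroblast marker Pdgfrb were highest in tumoroid replicate 3 too, at 1.86, 1.82 and 1.79 CPM. The part of such cells in these values was not tested.

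The medium comparison asked whether 24 hr in conditioned medium from tumoroids changes these genes in normal organoids. It was fitted on the 6 organoid libraries with a term for the replicate number, since organoid libraries of the same number deviated together. Of 35 members, 8 (22.9%) passed the test as lower in T-cM-titled organoids, against 5.05% of all genes, and 1 (2.86%) passed as higher, against 5.03%. With limma voom 8 of these 9 members did not pass the test, with adjusted p from 0.0515 to 0.162, and Cd74 did. Only H2-Aa (2.86%) was called lower, against 0.432%, a gene that met the TPM filter through the group where it is high, and 0 members were called higher, against 0.673%. At an unadjusted p under 0.05 in edgeR there were 12 members (34.3%), in either direction, against 22% of all genes, and DESeq2 called 0 members in both directions, giving H2-Aa no adjusted p. The median log2 fold change of the members was -0.24, and that of all genes 0.00.

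Of 7 tested class II members, 4 passed the test as lower in T-cM-titled organoids, and H2-Aa alone was called. H2-Aa was lower in all 3 pairs by the values given above, with 0.934, 1.40 and 2.26 CPM against 0.529, 0.543 and 0.733 CPM, and the log2 fold change was -1.29 ± 0.36 (SE, adjusted p = 0.0195). H2-Eb1 was lower in all 3 pairs as well, with groups that did not overlap and a change of -0.95 ± 0.27 (SE, adjusted p = 0.0197). Cd74 had groups that did not overlap, from 12.2 to 14 CPM in WT-cM-titled against 6.38 to 8.72 CPM in T-cM-titled organoids, and changed by -0.84 ± 0.14 (SE, adjusted p = 8.97e-05). H2-Ab1 fell in replicates 2 and 3 but measured 5.34 against 4.84 CPM in replicate 1, and changed by -0.60 ± 0.17 (SE, adjusted p = 0.0241). H2-DMb1 was lower in each pair without passing the test, at -0.99 ± 0.37 (SE, adjusted p = 0.0896), and H2-DMa differed by 0.06 ± 0.13 (SE, adjusted p = 0.874). H2-DMb2, with 1 count over these 6 libraries, did not pass. Ciita, not tested, was lower in each of the 3 pairs, with the groups not overlapping, on 12 to 49 counts per library.

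Of the class I pathway, Psmb9, Tap1, H2-Q1 and H2-T3 passed the test as lower. Psmb9 changed by -0.71 ± 0.16 (SE, adjusted p = 0.004) and Tap1 by -0.60 ± 0.15 (SE, adjusted p = 0.00996). Both fell in replicates 2 and 3, Psmb9 from 15.5 to 7.19 and from 20.1 to 8.9 CPM, while replicate 1 measured 12.8 and 13.3 CPM for Psmb9 and 21.4 and 25.0 CPM for Tap1. H2-Q1 changed by -0.41 ± 0.11 (SE, adjusted p = 0.011), also with replicate 1 standing level. H2-T3 was lower in all 3 pairs, with -0.34 ± 0.08 (SE, adjusted p = 0.00665). Tapbp alone rose, in all 3 pairs, by 0.33 ± 0.08 (SE, adjusted p = 0.0104). Psmb8 and Psmb10 did not pass the test, with -0.10 ± 0.12 (SE, adjusted p = 0.735) and 0.02 ± 0.08 (SE, adjusted p = 0.955), nor did Tap2, with -0.18 ± 0.11 (SE, adjusted p = 0.397), and Nlrc5, with -0.38 ± 0.31 (SE, adjusted p = 0.543).

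Psmb9 and Tap1 are neighbours transcribed in opposite directions from a shared promoter region, and their annotated transcripts overlap by 212 bases. The stretch between the RefSeq starts of both genes is printed because both genes passed the test in the same direction. It lies at chr17:34187331-34187555, plus strand (GRCm38.p6), 225 bases, within the annotated Gencode gene of Psmb9, with capitals on ATTGG or its reverse and on TGACG.
Psmb9-Tap1: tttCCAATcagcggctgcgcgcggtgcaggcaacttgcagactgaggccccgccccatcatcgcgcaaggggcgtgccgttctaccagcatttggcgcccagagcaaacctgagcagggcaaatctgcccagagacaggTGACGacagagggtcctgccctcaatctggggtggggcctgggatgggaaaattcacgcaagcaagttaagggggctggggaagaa

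**Figure D4:**
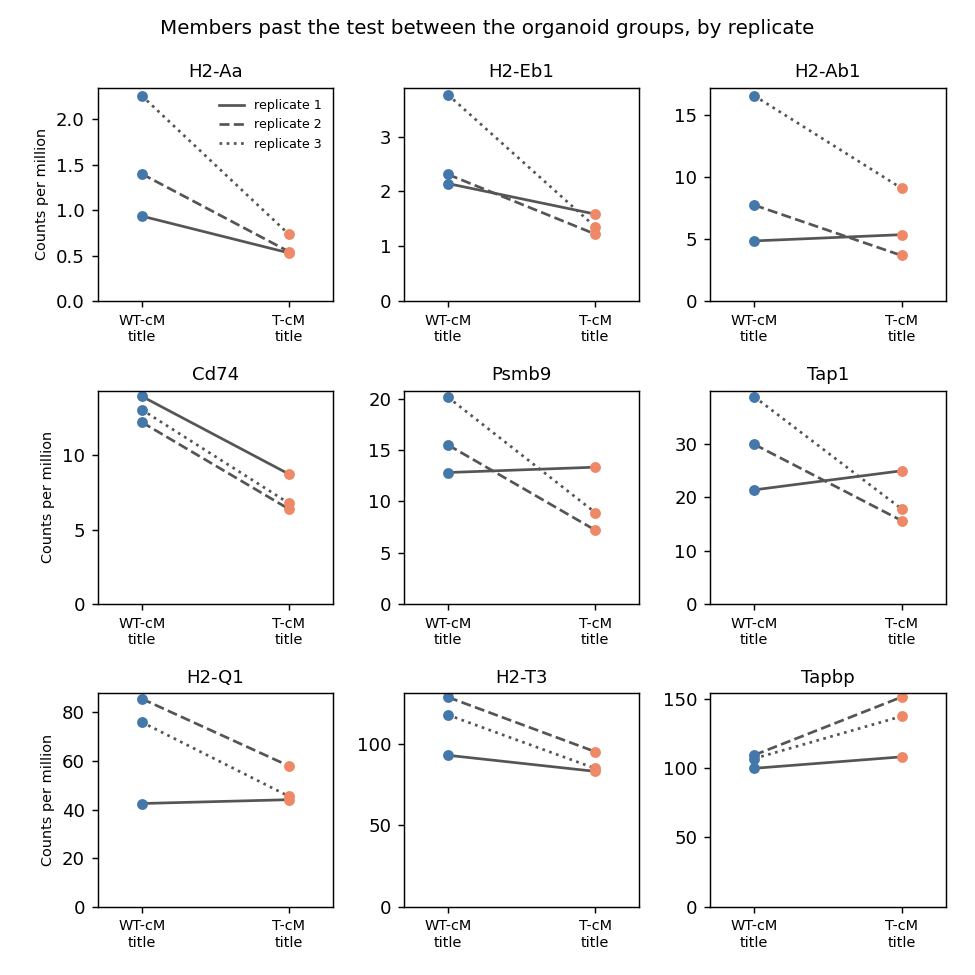
TMM-normalised CPM of the 9 members that passed the test between the organoid groups, with libraries of the same replicate number joined by a line. Each panel has its own axis from 0. H2-Aa, H2-Eb1, Cd74 and H2-T3 slope down in all 3 replicates, H2-Ab1, Psmb9, Tap1 and H2-Q1 in replicates 2 and 3, and Tapbp slopes up.

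The calls of this comparison depended on single replicates. Without replicate 1, 5 members were called lower, and without replicate 2 or replicate 3 there were none. The count over all genes moved the same way, from 70 called lower to 216 without replicate 1, 0 without replicate 2 and 23 without replicate 3. Cd74 kept an adjusted p under 0.05 when replicate 1 or 3 was left out, the other 8 members only when replicate 1 was. Without the replicate block, 0 members and 0 of all genes were called, and the adjusted p of these 9 members ranged from 0.688 to 0.929. T-cM-titled organoids were below in all 3 pairs for 9 of 35 members, against 22.3% of all genes, and above for 3, against 18.9%.

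Both comparisons use the organoid libraries, so their values are set side by side without a test of likeness. For H2-T3 the log2 fold change was -0.34 between the organoid groups and -4.12 in tumoroids, and for Cd74 it was -0.84 and -2.16. For Tap1 it was -0.60 and 0.07, and for Psmb9 -0.71 and -0.57. H2-Q2, H2-Q10, Psmb8 and Psmb10 stood at -0.24, -0.08, -0.10 and 0.02 between the organoid groups. Whether the effects differ was not tested. H2-K2, a pseudogene placed in no class, passed in neither comparison.

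A list of 45 other genes of these pathways was examined beside the members, and 43 were tested. In tumoroids 24 (55.8%) passed the test as lower, against 20.8% of all genes, and 11 (25.6%) as higher, against 29.6%. In each direction 7 (16.3%) were called, against 12.1% lower and 21% higher of all genes. Of those called higher, Mr1, Procr, Cd1d1, Azgp1 and Socs1 measured at most 0.495 CPM in any organoid library. They may have met the TPM filter only through tumoroids, where they are high, so they are no support for the counts as higher. The median log2 fold change of the list was -0.52. All 7 genes of class I loading passed as lower, with Calr and Tapbpl, a chaperone and an editor of class I peptides, called. Among 6 proteasome genes 5 passed as lower, with Psme2, a subunit of the interferon-induced PA28 activator, called at -1.28 ± 0.14 (SE, adjusted p = 5.7e-05). Ctss, the protease that trims the invariant chain, ranged from 35.7 to 49 CPM in the organoids and 3.3 to 7.3 CPM in the tumoroids and changed by -3.07 ± 0.26 (SE, adjusted p = 1.45e-05), and Ifi30, a lysosomal thiol reductase, changed by -2.13 ± 0.28 (SE, adjusted p = 0.000176). In the same list of class II loading, Ctsl and Lgmn, also lysosomal proteases, rose by 2.41 ± 0.23 (SE, adjusted p = 3.07e-05) and 2.18 ± 0.17 (SE, adjusted p = 7.75e-06).

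Of 6 tested class I-like genes outside H2, 4 were called higher and 1 lower in tumoroids, against 21% and 12.1% of all genes. The 4 called higher, Mr1, Cd1d1, Procr and Azgp1, measured at most 0.495 CPM in any organoid library. They may have met the TPM filter only through tumoroids, where they are high, so their calls are no support for this count. Mr1, which presents vitamin B metabolites to MAIT cells, ranged from 0 to 0.0886 CPM in the organoids and 5.35 to 23.8 CPM in the tumoroids, with a log2 fold change of 8.09 ± 0.77 (SE, adjusted p = 2.79e-05). It had 4 counts over the 6 organoid libraries and 963 over the tumoroids, a ratio of summed CPM of 335 with an exact 95% interval of 131 to 1233 for counting error only. Cd1d1, Procr and Azgp1 were called higher too, and Fcgrt, the neonatal Fc receptor chain, was called lower with -2.62 ± 0.24 (SE, adjusted p = 2.11e-05). Of 18 genes of the interferon gamma signal and of promoter factors, 5 (27.8%) passed as higher, against 29.6% of all genes, and 7 (38.9%) as lower, against 20.8%. Rfxank, a subunit of the RFX factor on class II promoters, was called at -1.15 ± 0.16 (SE, adjusted p = 0.000234), and Socs1, an inhibitor of cytokine signalling, at 2.43 ± 0.40 (SE, adjusted p = 0.000696) from under 1 CPM in organoids. Rfx5, another RFX subunit, passed as higher with 0.78 ± 0.17 (SE, adjusted p = 0.00371), and Ifngr2 and Jak2 passed as lower.

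Between the organoid groups 3 of the 43 (6.98%) passed as higher, against 5.03% of all genes, and 1 (2.33%) as lower, against 5.05%, with none called. Ctsl changed by 0.60 ± 0.10 (SE, adjusted p = 0.000119), the PA28 gamma subunit Psme3 by 0.33 ± 0.09 (SE, adjusted p = 0.0109) and Irf1, a factor induced by interferon gamma, by 0.29 ± 0.09 (SE, adjusted p = 0.0358), while Ezh2 changed by -0.29 ± 0.09 (SE, adjusted p = 0.0474). The median log2 fold change of the list was 0.05.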

How the data were processed

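Gene expression was measured by RNA-sequencing of polyadenylated RNA in 9 mouse libraries. The authors aligned paired-end reads of 100 bases to mm10 with STAR and deposited raw counts per gene of the Gencode annotation (release M13), which were used as deposited. The authors also deposited TPM values, in which counts are divided by gene length and scaled per library; these served for the filter, for comparing genes and for 1 alternative. The counting tool, its strand setting and the gene length are not given in the sources used here. Positions and transcripts were taken from a later Gencode release on GRCm38, and promoters from RefSeq (GRCm38.p6).

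Groups followed the titles. The genes tested reached a TPM of 1 or more in any library, and their raw counts were TMM-normalised and fitted with edgeR 4.0.16 (quasi-likelihood F test, form used before version 4) in R 4.3.3. The organoid comparison used 6 libraries and, like the study's own model, a replicate block. Deviations from the group means of same-numbered organoid libraries correlated at 0.546, 0.338 and 0.547. The tumoroid comparison used 9 libraries, tumoroids against the mean of both organoid groups, without a block. In place of voom, which the study used, edgeR was the main test because the values are counts, and limma 3.58.1 (voom) and DESeq2 1.42.0 were alternatives. Adjusted p-values are Benjamini-Hochberg over all tested genes. On simulated data for 16208 genes, 91 of 100 planted changes of 1 log2 unit passed the test in the organoid comparison and 35 of 100 in the tumoroid comparison, and 82 of 100 of 2 log2 units in the latter. Among genes without a planted change, 11 passed in the organoid comparison and 7 in the tumoroid comparison. Changes were planted only in genes above a minimum mean count, and no replicate effect was simulated. These shares therefore do not hold for members with few counts.

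The members, the other gene lists, the sequence letters and the rule for naming genes were chosen with earlier results of these data known. Named were the members outside H2, the main heavy and class II chains, every called member, the 5 highest H2- genes, H2-Ea-ps and H2-Ke6. From the other lists, called genes and those of smallest p were named, with Rfx5, Ifngr2, Jak2, Psmb6 and Psmb7 chosen after their values were seen, as were the 9 bases compared between H2-K1 and H2-Q10. Some genes of these lists are not reported here. Alternatives were other scaling factors, filters, tests and fits, leaving out replicates 1 by 1, and naming the medium by the treatment field.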

Additional observations from a re-analysis of the deposited data

How the results depend on the processing

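The organoid comparison depended on its settings. The count of members called lower, 1 in the fit reported, was 0 with limma voom, DESeq2, limma on log2(TPM + 1) and no replicate block, 2 with no TPM filter and 8 without a fold threshold, and ranged from 0 (without replicate 2 or 3) to 5 (without replicate 1) when 1 replicate was left out. The count called higher, 0 as reported, was 1 without a fold threshold. With the medium named by the treatment field the counts were 1 higher and 0 lower, every sign turned, and the members past the test stood at 1.29 (H2-Aa), 0.95 (H2-Eb1), 0.84 (Cd74), 0.71 (Psmb9), 0.60 (H2-Ab1), 0.60 (Tap1), 0.41 (H2-Q1), 0.34 (H2-T3) and -0.33 (Tapbp). Leaving out 1 replicate gave ranges across 0 for Psmb10 (-0.028 to 0.047, reversed without replicate 1), H2-K1 (-0.0031 to 0.049) and Psmb8 (-0.27 to 0.014, both reversed without replicate 2), and H2-T23 (-0.24 to 0.063), H2-Bl (-0.26 to 0.034) and H2-T10 (-0.37 to 0.47), these 3 reversed without replicate 3. Psmb10 was -0.0031 with upper-quartile factors and -0.0072 with library size alone, H2-K1 was -0.0014 with library size alone, and H2-T10 was 0.050 with DESeq2 and 0.019 on TPM. None of these reversed values passed the test (DESeq2 gave H2-T10 no adjusted p), those of the treatment field aside, and their causes were not tested.

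In tumoroids, 13 members called lower became 11 to 15 in the alternatives, and 6 called higher became 3 with limma voom and 3 (without organoid replicate 2) to 6 when 1 replicate was left out. With the replicate block added, 13 were lower and 7 higher; tumoroid and organoid libraries share only a number (correlations of 0.196, 0.124 and -0.0567 with T-cM-titled and 0.0832, 0.0327 and -0.0705 with WT-cM-titled libraries). Nlrc5 reversed to -0.20 (voom), -0.062 (block), -0.081 (against WT-cM-titled organoids) and between -0.93 and 0.52 with 1 replicate left out (negative without tumoroid or organoid replicate 3), Tapbp to 0.13 (library size alone) and 0.14 (TPM), and Tap1 to -0.24 (against WT-cM-titled organoids), -0.013 (organoid libraries summed by number) and between -0.20 and 0.20 with 1 replicate left out (negative without tumoroid replicate 3), none past the test and none with its cause tested. Of the values of single members in both comparisons, 784 kept direction and side of the threshold, 79 fell short of it, 32 passed it and 8 had no adjusted p from DESeq2. Another 29 changed direction, those with the medium named by the treatment field included. Depth limits H2-Q3, H2-M2, H2-DMb2, H2-Aa and H2-Eb1, and strain and allele mapping limit every H2 gene in tumoroids.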
